A study of Drosophila melanogaster with 8 samples.

Results

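The Notch receptor gene N and 9 further genes of its pathway were examined for peaks in an anti-GFP CUT&RUN experiment on larval wing discs of Drosophila melanogaster. In CUT&RUN an antibody brings a nuclease to chromatin, and the fragments it frees are sequenced. The genes were Ser, fng, H, Su(H), neur, kuz, Psn, mam and nct. The peaks of the 8 libraries were joined into one region wherever they overlapped by 1 bp or more, and a region belonged to a gene if it overlapped the gene's span or the 2 kb on either side. This rule gave 27 of the 9086 regions on the 6 chromosome arms, and each of the 27 belonged to 1 gene of the list. The genes were selected on these same peak calls, in that the strong peaks at N in damaged Zelda-GFP discs were already known, so calls and peak heights are described without a test.

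The tagged larvae carried GFP on the endogenous transcription factor Zelda, and the control larvae were untagged w1118 wild type. All 8 libraries were made with the same rabbit anti-GFP antibody, so a peak in an untagged library is a cut made without the tag. For each genotype, undamaged discs from normally developing larvae and damaged discs, collected 2 days after the damage, were used, with 2 libraries in each of the 4 groups. The labels used here do not say how the discs were damaged, at what age larvae were taken, or whether the libraries of a group came from separate sets of larvae.

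Notch is a transmembrane receptor that is activated by ligands on neighbouring cells. Ligand binding leads to cleavage by an ADAM protease and then by the gamma-secretase complex, and the freed intracellular domain enters the nucleus, where it joins a DNA-binding protein and a coactivator to switch on target genes. In the wing disc the pathway is known for forming the dorsal-ventral boundary and the wing margin, for vein width and for sensory bristle fates. Zelda is a zinc finger pioneer factor, best known for opening chromatin when the embryonic genome is first transcribed.

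The lists held 1698 to 3908 peaks on the arms. The background coverage of a library, which stands in for its depth, ranged from 32.6 to 52.3 fragments per base and was 38.0 in both damaged Zelda-GFP libraries. The lowest pileup, the number of fragments over the summit, of any called peak was between 1.45 and 1.62 times the background in every list. The fold given with a peak is the authors' own value, the pileup over the coverage expected locally. The replicate 1 libraries of both untagged groups were more alike than the replicates of either group. The share of regions called in both of 2 lists over those called in either (Jaccard index) was 0.457 between these replicate 1 libraries. It was 0.327 between the untagged damaged replicates and 0.312 between the untagged undamaged ones. For each untagged replicate 2 library, the index with its own replicate 1 was the highest it had. Untagged undamaged replicate 1 also had an index of 0.452 with undamaged Zelda-GFP replicate 2. A library with no call at a region has no value there, and its signal may lie anywhere below what the caller accepted.

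The 27 regions were called mostly in damaged Zelda-GFP discs. Both damaged Zelda-GFP libraries called 18 of the 27 regions, although not the same 18. Untagged damaged discs called 2 and 7, untagged undamaged discs 0 and 4, and undamaged Zelda-GFP discs 3 and 2. The group means were 18.0 ± 0.0 regions (SD, n = 2) in damaged Zelda-GFP discs, 4.5 ± 3.54 in untagged damaged discs, 2.0 ± 2.83 in untagged undamaged discs and 2.5 ± 0.707 in undamaged Zelda-GFP discs. Neither damaged Zelda-GFP count overlapped the counts of the other 6 libraries. Of the 27, 14 (51.9%, against 23.7% of all regions) were called in damaged Zelda-GFP libraries only. These 14 are among the 27 only through those calls, so part of the difference in counts follows from how the regions were gathered. Over all 9086 regions the damaged Zelda-GFP libraries called 37.0% and 39.2%, and untagged damaged replicate 2 called 37.9% as well. The shares over all regions were 22.8% for untagged damaged replicate 1, 16.5% and 33.1% for the untagged undamaged libraries and 29.3% and 15.8% for the undamaged Zelda-GFP libraries.

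Regions called in both damaged Zelda-GFP libraries and in neither untagged damaged library are called tag-dependent damaged regions. There were 11 among the 27, or 40.7%, against 13.4% of all regions. They lay at N (4), mam (3), and Ser, fng, H and kuz (1 each). Of the 11, 10 were called in none of the other 6 libraries, which is 37.0% of the 27, against 10.6% of all regions. Among all 1222 tag-dependent damaged regions on the arms, 965 were called in none of the other 6. The region beside fng was also called in undamaged Zelda-GFP replicate 1. The reverse, regions called in both untagged damaged libraries and in neither damaged Zelda-GFP library, held 1 region, in kuz (3.04% of all regions). In that region of kuz no undamaged and no tagged library had a call at all (0.913% of all regions). No region was called in both undamaged Zelda-GFP libraries and in neither untagged undamaged library, where 3.02% of all regions were. Likewise 0 were called in both undamaged Zelda-GFP libraries and in no other group (0.616% of all regions), or in both untagged undamaged and neither undamaged Zelda-GFP library (1.96%). None of the 27 was called in all 8 libraries, against 6.45% of all regions. A call in at least 1 Zelda-GFP library was found at 22 of the 27 (62.2% of all regions), a call in at least 1 untagged library at 11 (65.7%), and 8 regions were called in 1 library (53.1%). Of the 27, 15 were called in both libraries of at least 1 group, against 36.2% of all regions. Without untagged damaged replicate 1 the count of tag-dependent damaged regions was 12 (14.9% of all regions), and without replicate 2 it was 13 (18.7%). The 27 were gathered within 2 kb of listed genes, while the regions on the arms were not limited to genes. The shares of the 27 and of all regions thus come from unlike sets, and no matched set was made.

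**Figure D1:**
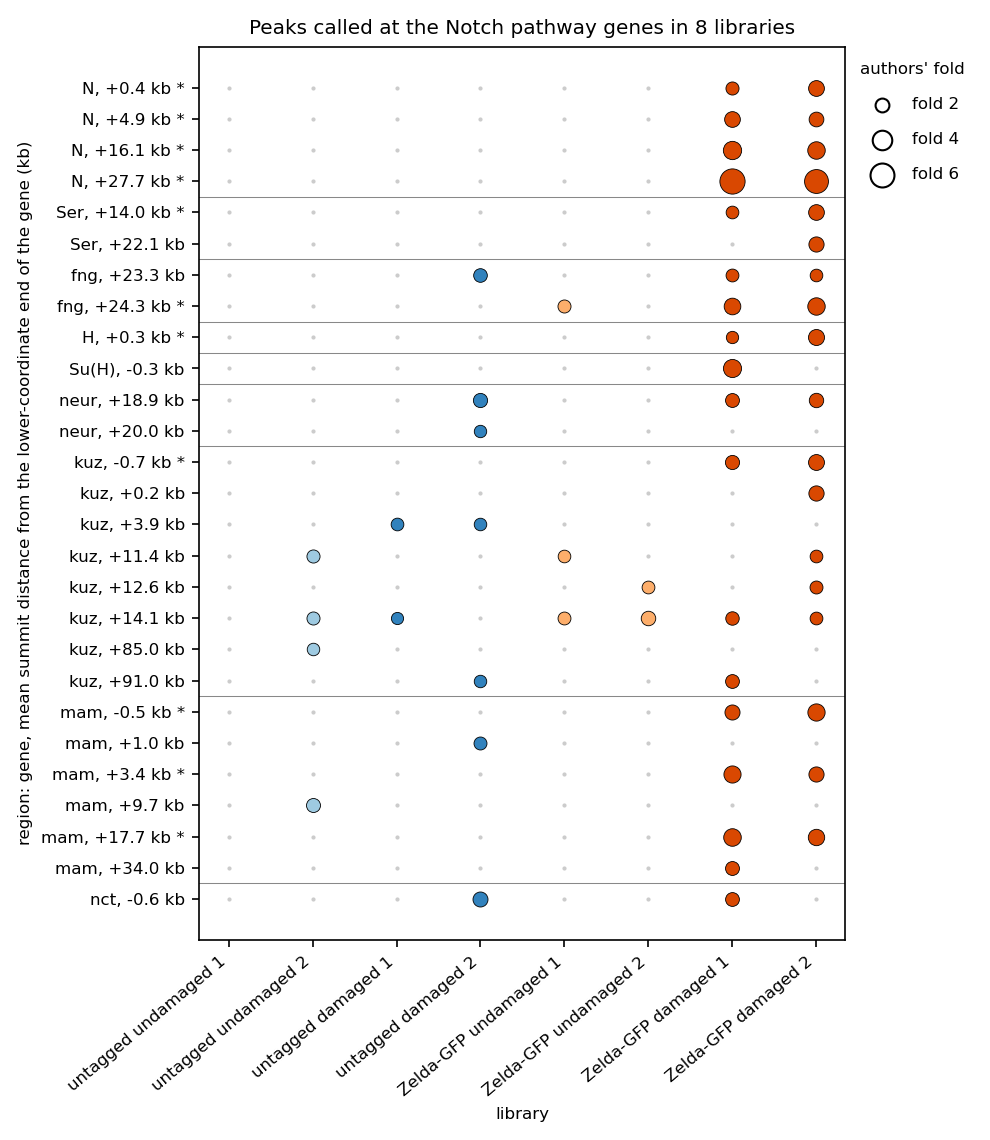
Each row is 1 of the 27 regions, named by gene and by the mean distance of its summits from the lower-coordinate end of the gene in kb, and each column is a library. A circle marks a called peak, its area proportional to the authors' fold, a grey dot marks no call, and asterisks mark the 11 tag-dependent damaged regions. The circles stand mainly in the 2 columns of damaged Zelda-GFP discs, and the largest pair is at N.

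Gene length bears on such counts, because a long gene can hold more regions. Of the 10 genes, 9 had a region of any library, as did 49.9% of the protein-coding genes on the arms, and 7 had one called in both damaged Zelda-GFP libraries, as did 15.4%. These shares are not matched for length: 5 of the 10 genes span 20 kb or more, against 1012 of 13922 protein-coding genes. Of 13922 protein-coding genes on the arms, 9.8% had a tag-dependent damaged region within 2 kb. The share was 6.01% for genes spanning under 5 kb, 18.1% for those of 5 to 20 kb and 28.8% for those of 20 kb or more. In the Notch list all 5 genes of 20 kb or more (N, Ser, fng, kuz and mam) had one, 1 of the 2 genes of 5 to 20 kb had one (H, not neur), and 0 of the 3 shorter genes did (Su(H), Psn and nct). The ones of fng and kuz lay outside the gene span, within the 2 kb on either side. N, with 4 regions, was among 20 protein-coding genes (0.144%) with at least 4. Among genes of 20 kb or more, 1.88% had at least 4 such regions. At least 3, as at mam, were found at 0.424% of all protein-coding genes and at 5.04% of those of 20 kb or more.

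**Figure D2:**
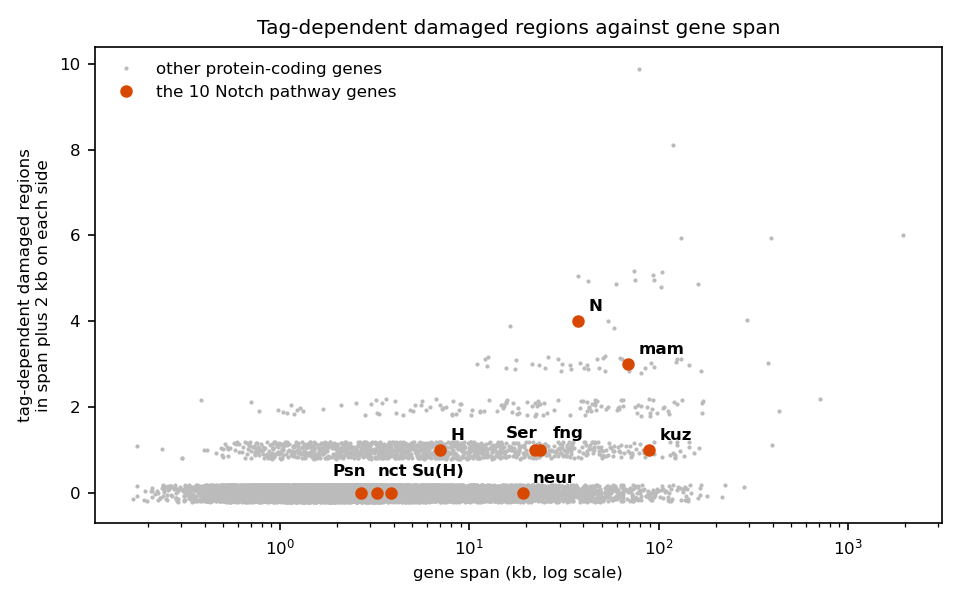
Each point is a protein-coding gene, placed by its span in kb on a log axis and by its number of tag-dependent damaged regions, with grey points spread slightly up and down so that they can be seen apart. The 10 Notch pathway genes are in orange. N stands at 4 regions, mam at 3, and Ser, fng, H and kuz at 1.

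N encodes the receptor itself and spans 37.4 kb at X 3134870 to 3172221 (dm6). It held 4 regions, all inside the gene and all called in both damaged Zelda-GFP libraries and in no other library. No other gene overlapped any of them. The strongest, at X 3162169 to 3162990, had its summit 27.7 kb from the lower-coordinate end of N. Its pileup was 259 fragments in damaged Zelda-GFP replicate 1, where 38.0 were expected, and 273 in replicate 2, where 44.9 were expected. The folds of 6.66 and 5.97 placed it 18th of 3624 and 36th of 3908 peaks in these lists. The 2 summits lay 23 bp apart. In units of background coverage the pileups were 6.81 and 7.18 times, whereas every list called peaks from 1.62 times or lower, and the other 6 lists had no call within 2 kb of N.

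The other regions of N were lower. The region at X 3150776 to 3151303, 16.1 kb into the gene, had pileups of 136 and 124 and folds of 3.51 and 3.20, with summits 67 bp apart. The region at X 3139409 to 3139983 had pileups of 100 and 88 and folds of 2.59 and 2.28. It stood at the 75.2 and 61.3 percentile of fold in its lists, where the strongest region stood at 99.5 and 99.1. The region nearest to a gene end, at X 3134922 to 3135791, was the lowest of the 4 in replicate 1 and the second lowest in replicate 2. Its pileups were 69 and 101 and its folds 1.79 and 2.61, and the summits were 308 bp apart. In both libraries the region 27.7 kb into N was the highest of the 4 and the region 16.1 kb into N came next, while the order of the remaining pair differed between the replicates.

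The merged regions most like the strongest region of N were sought among the 964 others called in the same 2 libraries and in no other. Likeness was the Euclidean distance between percentiles of fold over the 8 lists. The closest was a region in hng3 at 3L 748815 to 749200, with folds of 7.81 and 6.48, at a distance of 0.399 percentile points. Next came a region in sbb at 2R 18335095 to 18335548 with folds of 5.72 and 6.19, and a region in mbl at 2R 17261892 to 17262856 with folds of 6.19 and 7.11. All 4 regions are described by the same 2 libraries, so likeness rests on 2 values a region.

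Among the ligands, Ser encodes Serrate, a transmembrane ligand of Notch, and spans 22.2 kb at 3R 27172090 to 27194267. Its tag-dependent damaged region at 3R 27185713 to 27186435 lay inside the gene. The pileups were 65 and 100 and the folds 1.69 and 2.59, so replicate 1 was close to its lowest called pileup of 58 and replicate 2 was higher. The summits were 28 bp apart. A second region, across the higher-coordinate end of Ser at 3R 27194045 to 27194653, was called in damaged Zelda-GFP replicate 2 alone, with a pileup of 94 and a fold of 2.42. No untagged and no undamaged library had a call at Ser.

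fng encodes Fringe, a glycosyltransferase that modifies Notch and changes which ligand it responds to. The gene spans 23.6 kb at 3L 20925891 to 20949512, and both of its regions lay at its higher-coordinate end. The region at 3L 20949727 to 20951176 began 215 bp beyond the gene and overlapped the long noncoding RNA gene CR45243. Its pileups were 143 and 157 and its folds 2.91 and 3.18 in damaged Zelda-GFP discs. Undamaged Zelda-GFP replicate 1 also called it, with a pileup of 98 and a fold of 1.78, and no untagged library did. The region at 3L 20948984 to 20949366, inside the end of the gene, was called in both damaged Zelda-GFP libraries with folds of 1.73 and 1.67. Untagged damaged replicate 2 called it with a fold of 1.95, higher than either tagged fold. Over background coverage the order was the reverse, with 1.97 times in the untagged library and 2.21 and 2.16 times in the tagged ones.

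neur encodes Neuralized, a ubiquitin ligase that acts on Notch ligands, and spans 19.1 kb at 3R 9020348 to 9039471. Its region at 3R 9039008 to 9039556 overlapped both neur and its neighbour hyx. The folds were 2.02 and 2.18 in damaged Zelda-GFP discs and 2.12 in untagged damaged replicate 2. The untagged fold lay between the tagged ones, and over background coverage the values were 2.05 and 2.21 times in the tagged libraries and 2.15 times in the untagged one. A further region beside neur, at 3R 9040112 to 9040450 in hyx, was called in untagged damaged replicate 2 only, with a fold of 1.61.

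kuz encodes Kuzbanian, the ADAM protease of the pathway, and is the longest gene of the list, with 89.3 kb at 2L 13550139 to 13639411. It also had the most regions, 8, and calls from all libraries but untagged undamaged replicate 1. Its tag-dependent damaged region at 2L 13548219 to 13549979 ended 160 bp below the gene and overlapped the neighbouring gene B4. The pileups were 85 and 103 and the folds 2.11 and 2.65. The summits were 791 bp apart, the widest gap among the 11 tag-dependent damaged regions, so the replicates shared a broad region and not a summit. The region at 2L 13550280 to 13550767, just inside the gene, was called in damaged Zelda-GFP replicate 2 alone with a fold of 2.44.

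Deeper in kuz the calls did not follow the tag. At 2L 13553721 to 13554350 both untagged damaged libraries had a call, with folds of 1.69 and 1.65, and no tagged library did. The region at 2L 13563069 to 13565011 was called in 6 of 8 libraries, with folds from 1.56 in untagged damaged replicate 1 to 2.20 in undamaged Zelda-GFP replicate 2. Both damaged Zelda-GFP libraries called it, with folds of 1.90 and 1.71 and summits 889 bp apart. The region at 2L 13561077 to 13562162 had 1 call each from an untagged undamaged, an undamaged Zelda-GFP and a damaged Zelda-GFP library, with folds of 1.80, 1.67 and 1.70. The remaining 3 regions at kuz were called in 1 or 2 libraries with folds of at most 2.00.

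**Figure D3:**
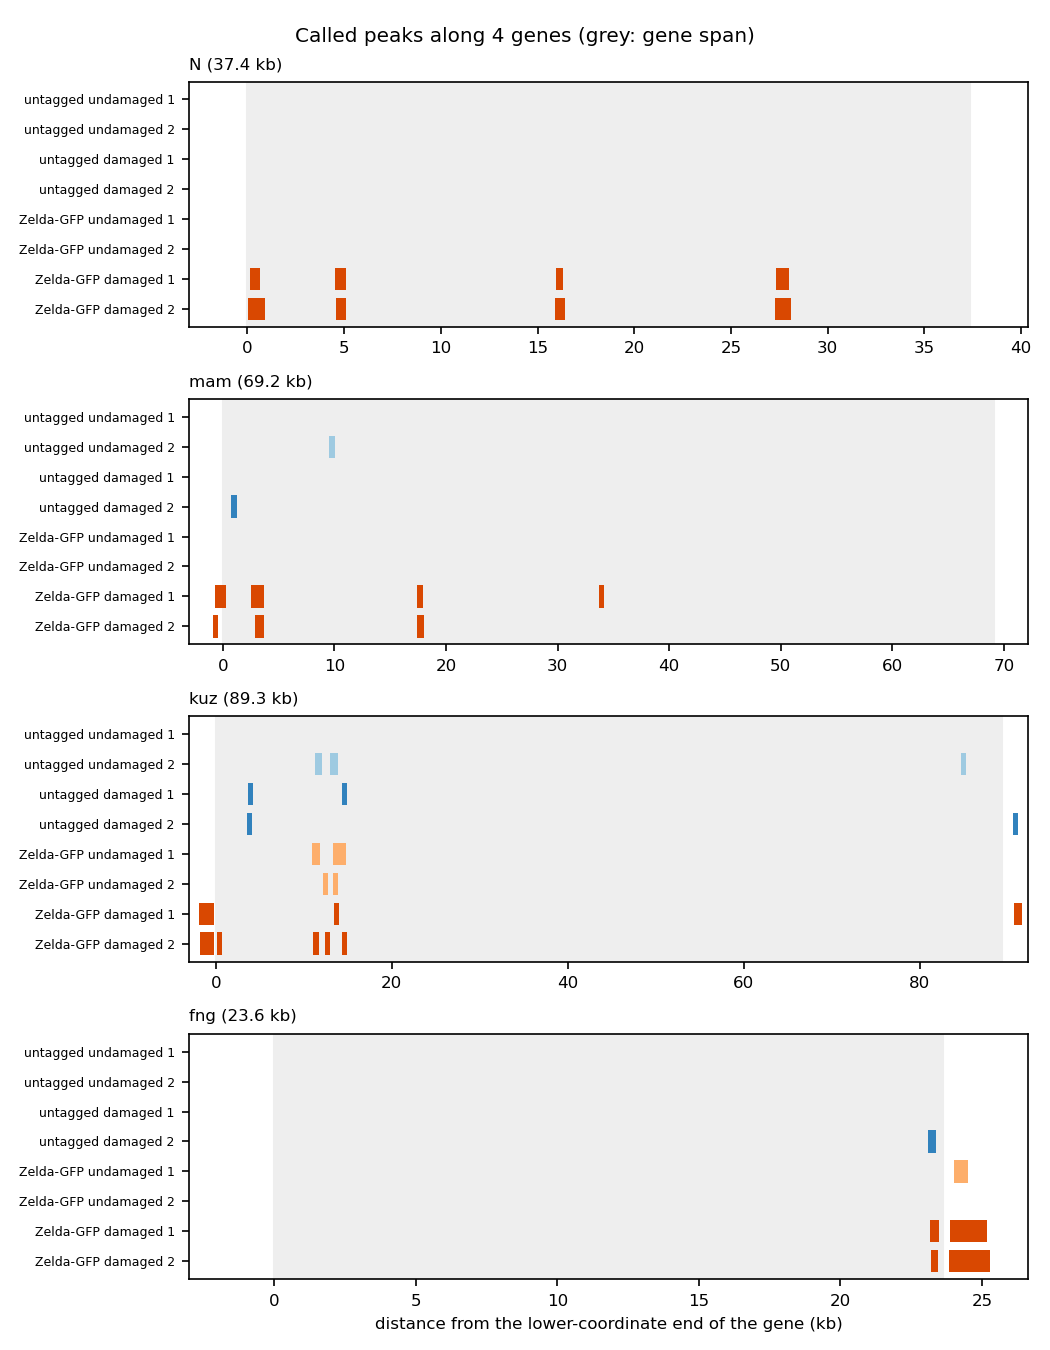
Called peaks of each library (rows) along N, mam, kuz and fng, with the distance from the lower-coordinate end of each gene in kb and the gene span in grey. Peaks narrower than the gene span divided by 150 are drawn at that width. At N the 4 peaks of both damaged Zelda-GFP libraries line up and no other library has a call, while at kuz 7 libraries have calls, most of them near the lower-coordinate end.

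Neither gamma-secretase gene of the list had a tag-dependent damaged region. Psn encodes Presenilin, the catalytic subunit, and spans 2.69 kb at 3L 20432468 to 20435156. No library called a peak within 2 kb of it. nct encodes Nicastrin, another subunit, at 3R 24851601 to 24854869, and is spelled Nct in the gene table. Its single region at 3R 24850772 to 24851404 lay 197 bp below the gene and overlapped CG7006. Untagged damaged replicate 2 called it with a pileup of 110 and a fold of 2.36, and damaged Zelda-GFP replicate 1 with a pileup of 77 and a fold of 2.00.

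Among the nuclear components, Su(H) encodes the DNA-binding protein that the cleaved receptor joins, at 2L 15039488 to 15043334. Its single region, at 2L 15038927 to 15039730 across the lower-coordinate end, was called in damaged Zelda-GFP replicate 1 with a pileup of 133 and a fold of 3.43. That peak stood at the 91.2 percentile of its list, and yet replicate 2 had no call there. The replicates therefore disagreed at Su(H), and the region was not counted as tag-dependent.

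mam encodes Mastermind, the coactivator of the complex, and spans 69.2 kb at 2R 13991203 to 14060356. Its 3 tag-dependent damaged regions had summits no farther than 17.7 kb from the lower-coordinate end. The first, at 2R 13990443 to 13991499, crossed that end and also overlapped RN-tre. Only the replicate 1 peak crossed the end, while the replicate 2 peak, at 2R 13990443 to 13990687, and both summits lay outside mam. This first region had pileups of 118 and 144, folds of 2.38 and 3.12 and summits 402 bp apart. The second, at 2R 13993730 to 13994866, had pileups of 153 and 109 and folds of 3.08 and 2.41. The third, at 2R 14008567 to 14009195, had pileups of 125 and 109, folds of 3.23 and 2.82 and summits 2 bp apart, the closest of the 11. None of the 3 was called in another library.

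The other 3 regions of mam were each called in 1 library. Untagged damaged replicate 2 had a peak with a fold of 1.76 at 2R 13992053 to 13992365, between the first and the second tag-dependent region. Untagged undamaged replicate 2 had one with a fold of 2.05, and damaged Zelda-GFP replicate 1 one with a fold of 2.02. These folds lay below all 6 folds of the tag-dependent regions of mam, of which 2.38 was the lowest.

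H encodes Hairless, which holds Su(H) in a repressor complex, and spans 6.98 kb at 3R 20621938 to 20628915. Its 1 region, at 3R 20621970 to 20622772 inside the lower-coordinate end, was tag-dependent in damaged discs. The pileups were 61 and 104 and the folds 1.59 and 2.69. In replicate 1 it was near the bottom of the list, 3496th of 3624 peaks by fold with a −log10 q-value of 1.96, while in replicate 2 it was 900th of 3908 with 16.2. The call at H thus rested on a weak peak in 1 of the 2 libraries.

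**Figure D4:**
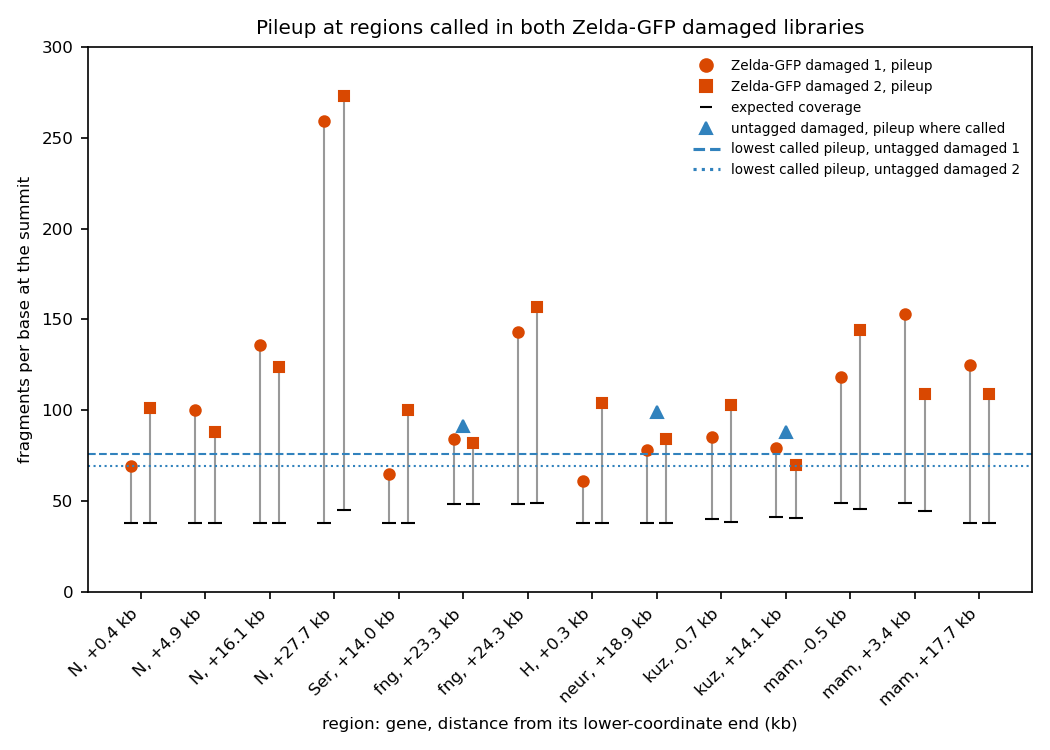
Pileup in fragments per base at the 14 regions called in both damaged Zelda-GFP libraries (circles, replicate 1; squares, replicate 2), with black ticks for the expected coverage and blue triangles for the pileup where an untagged damaged library had a call. Blue lines mark the lowest pileup called anywhere on the arms in the untagged damaged lists, 76 and 69. The region at N with pileups of 259 and 273 stands above all others, and the replicates lie farthest apart at the second region of mam, with 153 and 109, and at H, with 61 and 104.

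The 14 regions called in both damaged Zelda-GFP libraries divided into the 11 tag-dependent ones and 3, at fng, neur and kuz, with a call in an untagged damaged library. That is 21.4% with an untagged call, against 49.3% of the 2411 such regions on the arms (26.5% of all regions). All 13 untagged peaks at the 10 genes had folds between 1.56 and 2.36, and all 5 undamaged Zelda-GFP peaks had folds between 1.67 and 2.20. The 36 damaged Zelda-GFP peaks ranged from 1.59 to 6.66.

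In their other features the 11 regions can be set beside all 1222 tag-dependent damaged regions on the arms. The median fold was 2.59 and 2.69 in replicates 1 and 2, against 2.38 and 2.50 for all of them. A fold of at least 3 in both libraries was reached by 2 of the 11, both in N, against 17.4% of all. Replicate 1 had the higher fold at 5 of the 11 regions, against 43.7%. The summits of both libraries lay within 100 bp of each other at 6 of the 11 regions, against 62.6%. The median length was 822 bp, against 793.5 bp. Within 500 bp of an end of a protein-coding gene lay 5 of the 11, against 43.9%, and 8 lay wholly inside a protein-coding gene, against 51.2%. The 11 were gathered in or near listed genes and the 1222 were not, so their places follow in part from that rule. With 11 regions, 1 region is 9.09 percentage points, and nothing in these features is called particular to the Notch genes.

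The 2 kb limit had regions close to it on either side. The outermost region counted lay 1364 bp above kuz, was called in untagged damaged replicate 2 and damaged Zelda-GFP replicate 1, and had folds of 1.64 and 2.00. The nearest regions left out lay 2134 bp from Psn and 2374 bp from mam, each called in 1 untagged library with folds of 1.66 and 1.59. The only tag-dependent damaged region among the nearest ones left out lay 6450 bp from Ser, at 3R 27200717 to 27201853, with a highest fold of 3.36.

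Other genes of the pathway were read in the same way, from a list of 26 chosen by their place in the pathway, of which 25 were analysed. Calls at ct and wg were known when the list was made. A tag-dependent damaged region was present at 11 of the 25 (44.0%, against 9.8% of all protein-coding genes), a tag-dependent undamaged region at 0. Of the rest, 11 had regions without one, 8 of them with an untagged call, and 3 had no region. The 9.8% is not matched for gene length. Of the 11 genes with a tag-dependent damaged region, 6 belong to the Enhancer of split complex, described next. The genes without one included gro and mib1, the co-repressor Groucho and a ubiquitin ligase for ligands, where regions called in both damaged Zelda-GFP libraries were called in untagged libraries too. They also included the gamma-secretase genes aph-1 and pen-2, and numb and dx, which had no region. Every region at aph-1 and pen-2 had a call in an untagged library, and none was called in both damaged Zelda-GFP libraries.

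The Enhancer of split complex, a cluster of short direct Notch target genes on 3R, held much of this. Of its 9 listed genes, 6 had a tag-dependent damaged region, against 6.01% of genes under 5 kb, and 6 distinct regions served them. The genes lie side by side and share flanks, so they are not independent of each other. The region at 3R 26002416 to 26003413, shared by E(spl)mgamma-HLH and E(spl)mbeta-HLH, had pileups of 319 and 383 and folds of 4.15 and 4.43. Beside E(spl)malpha-BFM, a region at 3R 26008333 to 26009275 had pileups of 388 and 368 and folds of 4.20 and 3.66. In fragments these pileups exceeded that of the strongest region of N, while the folds were lower. The locally expected coverage was 76.1 and 85.7 fragments per base at the first and 91.6 and 99.7 at the second. The other 4 regions of the complex had folds between 1.77 and 2.77. No undamaged library called any of the 6.

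Outside the complex, 5 listed genes had 1 tag-dependent damaged region each. The wing selector gene vg, a Notch target at the dorsal-ventral boundary, had one at 2R 12888965 to 12889608 with folds of 2.92 and 3.33. The margin gene ct had one at X 7626961 to 7627391 with folds of 2.95 and 2.61. The co-repressor gene CtBP had folds of 2.36 and 3.90. Su(dx), a ubiquitin ligase that acts on Notch, had folds of 2.82 in both libraries, and rumi, an enzyme that adds glucose to Notch, had 2.41 and 1.82. wg, another margin target, had 1 region, called in damaged Zelda-GFP replicate 2 alone.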

How the data were processed

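Per the labels, each of the 8 libraries has its own list of peaks. The submitters' processing notes name bcl2fastq 2.20, Bowtie2, SAMtools, Picard, deepTools and MACS2 and the build dm6, without settings. Whether a control library entered peak calling is not given in the sources used here. The deposited fold enrichment is a linear ratio, the deposited −log10 p-value and −log10 q-value belong to each peak, and the deposited score, 10 times the −log10 q-value, was not used. Pileup and expected coverage were recovered from fold and p-value (Poisson upper tail, 1 added to both in the fold). The pileup was whole, within 0.05, for 99.9% to 100.0% of peaks in each list, after rounding. The lowest expected coverage of a list was taken as its background. Merging, calls and recovery were tested on simulated data (Python 3.11.15, pandas 2.3.3, scipy 1.17.1). Gene spans came from a RefSeq table of Release 6, the assembly dm6 stands for. All 10 genes matched, 9 by symbol and nct by synonym. Strand, exons and sequence were not used here. Regions called in both libraries of a group were described in full, the others by counts or range. The genes, lists and rules were chosen with earlier results of these data known, so no test was made, and counts of tag-dependent regions are set beside the same share over all regions or genes. Alternatives were a minimum fold or q-value, lists of equal length, summit windows, coverage of the region, other flanks and leaving out each library.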

Additional observations from a re-analysis of the deposited data

How the results depend on the processing

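With peaks of a fold of at least 3, the 11 tag-dependent damaged regions of 27 became 2 of 7, both in N. Of all regions, 25% qualified at that setting, so the share at the 10 genes was then close to it. With lists of equal length they became 6 of 21, at N, fng and mam (13.2% of all regions). With summit windows of 100 bp they became 6 of 39, at N, Ser and mam (7.01%). The 10 of these regions with no call in the other 6 libraries became 2, 6 and 6, and the 6 genes became 1, 3 and 3, under the same settings. The 27 regions became 7 at a fold of at least 3. With a −log10 q-value of at least 5 there was 1 tag-dependent undamaged region, against 0, where 4.2% of all regions qualified. At that setting 8 of 21 regions were tag-dependent damaged ones (17.9% of all regions), at N, fng, kuz and mam, so 4 genes. With peaks covering at least 50% of the region, no flank or a flank of 5 kb, no count over the 10 genes moved by over 1.5 times. With no flank, 9 of 22 regions were tag-dependent damaged ones (13.4% of all regions), at 4 genes, N, Ser, H and mam. Leaving out 1 library at a time gave 11 to 15 tag-dependent damaged regions (13.5% to 24.8% of all regions), 0 to 1 undamaged ones, 10 to 12 with no other call, 6 to 7 genes, 25 to 28 regions in all and 0 to 0 called in every library. Leaving out a library loosens such criteria by construction. Counts at single genes moved by over 1.5 times for 8 genes at a fold of at least 3, and for 3 each with no flank and with 5 kb. Other causes of these shifts were not tested. No paired analysis was possible because the results come from no test, and the labels do not say that replicate numbers link libraries across groups. In damaged Zelda-GFP replicate 1 the pileups of 65 at Ser and 61 at H were close to the lowest called pileup, 58, which was also that of replicate 2.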
